A study of Mus musculus with 8 samples.

Results

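Tight and adherens junctions seal the paracellular space between brain endothelial cells, and 9 transcripts of these junctions are described here in mouse pups labelled as lacking the glucose transporter GLUT1 in endothelium. The genes were taken from a list of junction symbols (Cldn5, Ocln, Tjp1, Cdh5, Esam, F11r, Jam2, Marveld2 and Cgnl1), matched through GENCODE M21, and are 9 of the 25700 gene rows in each count table. All 9 passed the filter on low counts, which left 14154 genes for the test. The KO group held 4 pups labelled GLUT1EC-/- and the WT group held 4 wild-type pups, all C57BL/6 mice at postnatal day 6. Endothelial cells were isolated from each brain by flow cytometry, lysed without culture and profiled by stranded poly(A) RNA-seq. The promoter that drives the endothelial deletion is not given in the sources used here.

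In brain capillaries, claudin strands set the size and charge selectivity of the paracellular path, and claudin-5 is their main endothelial protein. Occludin and tricellulin (Marveld2) are MARVEL-family membrane proteins of bicellular and tricellular contacts. Immunoglobulin-type proteins (ESAM, JAM-A from F11r and JAM-B from Jam2) act with them, and the plaque proteins ZO-1 (Tjp1) and paracingulin (Cgnl1) tie the strands to actin. VE-cadherin (Cdh5) forms the adherens junction and anchors the catenins. In bulk RNA, fewer cells of a type and less RNA per cell cannot be told apart.

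The libraries held 20858070 to 114007737 counts on genes, and the 9 transcripts were covered by 417 to 362690 counts per library. KO pup 1 stood apart, with 13624 detected genes against at least 15756 in the others. By the sample titles, WT pup 5 shared the cage of the 4 KO pups, whereas file names place WT pup 3 there, so genotype and cage were nearly confounded. Slc2a1, the GLUT1 gene, measured 1386, 1511, 1528 and 1602 CPM (counts scaled to a library of 1e+06 after TMM normalization) in KO pups 1 to 4 and 2238, 3420, 2792 and 3726 CPM in WT pups 1, 2, 3 and 5 (49.5% of WT by the fit, edgeR adjusted p = 0.00619). The transcript was thus lower in every library labelled KO but not absent from any, and the tables do not show which part of it carries the deletion. Endothelial markers (8 genes, among them Pecam1, Kdr and Tek) summed to 8834 to 10086 CPM in KO and 9258 to 10226 in WT, against at most 41.3 CPM for 7 neuronal markers and 2565 for 8 mural markers. The summed choroid plexus and ependyma list (7 genes, none at 0 in all libraries, 0 called) did not overlap between the groups. It gave 18.9 to 318 CPM in KO and 370 to 1878 in WT. Its Ttr alone, most of each sum, gave 10.5 to 276 CPM in KO and 352 to 1823 in WT. Its Folr1 overlapped (2.15 CPM in KO pup 4, 1.31 in WT pup 1), as did Kcnj13 (1.01 in KO pup 1, 0.732 in WT pup 3). Of all tested genes, 7.19% did not overlap.

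The promoter windows are shown for the transcript with the highest level (Cldn5), the lowest (Marveld2) and the largest positive fold change (Cgnl1) of the 9, and for Nectin2, the 1 junction gene outside the 9 that passed the test below. RefSeq (GRCm38.p6) held windows for 6 of the 9 genes. The 250 bases before each annotated start are given 5′ to 3′ on the gene's strand, with CpG dinucleotides in capitals.
Cldn5, chr16:18776597-18776846, plus strand: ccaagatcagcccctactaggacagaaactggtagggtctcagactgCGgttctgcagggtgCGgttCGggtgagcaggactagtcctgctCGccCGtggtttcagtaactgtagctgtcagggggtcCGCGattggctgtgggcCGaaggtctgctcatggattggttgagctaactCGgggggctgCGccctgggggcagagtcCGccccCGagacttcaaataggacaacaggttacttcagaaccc
Marveld2, chr13:100616972-100617221, minus strand: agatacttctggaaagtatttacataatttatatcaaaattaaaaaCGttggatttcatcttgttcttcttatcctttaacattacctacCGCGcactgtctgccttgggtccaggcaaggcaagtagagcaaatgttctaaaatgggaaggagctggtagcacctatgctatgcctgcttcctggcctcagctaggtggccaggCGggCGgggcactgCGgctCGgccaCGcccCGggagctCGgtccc
Cgnl1, chr9:71771603-71771852, minus strand: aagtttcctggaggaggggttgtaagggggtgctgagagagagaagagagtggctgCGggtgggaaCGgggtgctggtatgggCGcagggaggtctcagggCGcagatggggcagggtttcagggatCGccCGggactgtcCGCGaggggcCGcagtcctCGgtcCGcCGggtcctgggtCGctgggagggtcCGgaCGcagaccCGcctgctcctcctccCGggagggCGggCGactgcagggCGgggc
Nectin2, chr7:19749574-19749823, minus strand: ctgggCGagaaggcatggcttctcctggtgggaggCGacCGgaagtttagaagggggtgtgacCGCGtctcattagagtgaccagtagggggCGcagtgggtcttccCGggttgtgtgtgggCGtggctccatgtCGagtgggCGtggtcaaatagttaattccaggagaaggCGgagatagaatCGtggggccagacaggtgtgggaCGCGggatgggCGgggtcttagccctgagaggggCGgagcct
CpG counts in the 8 windows of the 6 genes ran from 10 to 22, against a median of 6 over all 32851 windows of that length, and Cldn5 held 12, the first Marveld2 window 10, Cgnl1 20 and Nectin2 16. The ETS letters CGGAAG, searched on both strands, were present in the Tjp1 and Nectin2 windows and in 13.6% of all windows. The SOX letters ATTGT (27.7% of all windows), the forkhead letters GTAAACA (3.17%) and the TCF/LEF letters ATCAAAG (3.21%) were in none of the 9 windows. The matches describe these letters only.

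Per length, the order of the 9 transcripts was led by Cldn5 and closed by Marveld2. Levels in RPKM (CPM per kilobase of merged exon) over the 8 libraries were 2209 ± 110 for Cldn5, 377 ± 25.6 for Cdh5, 365 ± 19.5 for Esam and 158 ± 19.1 for Tjp1 (SD, n = 8). F11r followed at 84.6 ± 5.84 RPKM, Cgnl1 at 74.6 ± 7.29, Ocln at 68.0 ± 6.48, Jam2 at 49.3 ± 3.59 and Marveld2 at 7.21 ± 0.974. Cldn5 thus stood above 99.9% of all tested genes and Marveld2, which marks tricellular contacts, above 57.2%. Neighbours in this order were compared within libraries by a two-sided exact sign-flip permutation test over 8 pairs, whose smallest p is 0.00781. The order came from the means of the same 8 libraries, both groups together, so the test describes only how steady each step was across them. Cldn5 exceeded Cdh5 by 5.87-fold, Esam exceeded Tjp1 by 2.33-fold, Tjp1 exceeded F11r by 1.86-fold, Ocln exceeded Jam2 by 1.38-fold and Jam2 exceeded Marveld2 by 6.89-fold, each in 8 of 8 libraries (exact adjusted p = 0.0125). The remaining neighbours did not differ beyond their spread: Cdh5 over Esam (1.03-fold, 6 of 8 libraries, exact permutation adjusted p = 0.422), F11r over Cgnl1 (1.14-fold, 6 of 8, exact permutation adjusted p = 0.0729) and Cgnl1 over Ocln (1.10-fold, 5 of 8, exact permutation adjusted p = 0.25). By group means Cgnl1 was above Ocln in KO (79.8 and 64.2 RPKM) and below it in WT (69.3 and 71.9 RPKM). With the longest transcript in place of merged exons, Esam came before Cdh5.

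**Figure D1:**
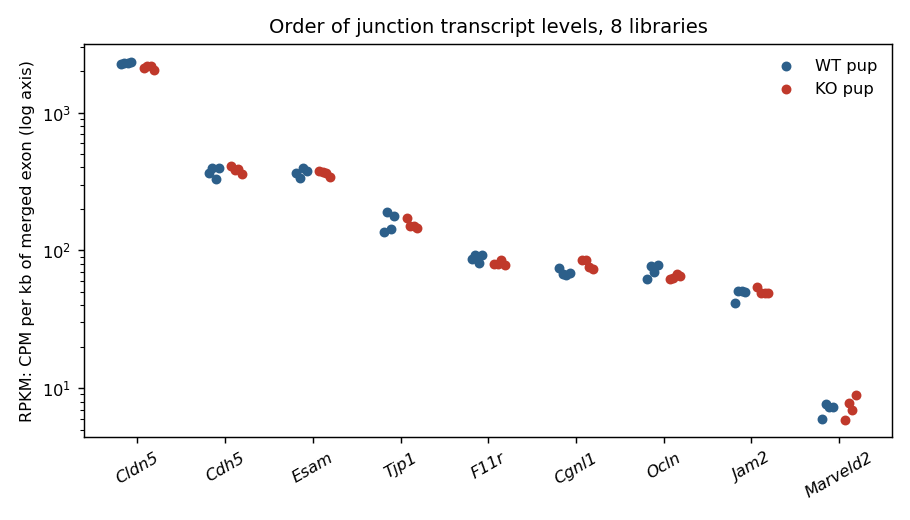
Level of each junction transcript in RPKM (log axis) for 4 WT pups (blue) and 4 KO pups (red), ordered by the mean over 8 libraries. Cldn5 lies at 2023 to 2336 RPKM in all libraries and Marveld2 at 5.91 to 8.86, and the ranges of Cdh5 and Esam overlap, as do those of F11r with Cgnl1 and of Cgnl1 with Ocln.

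Between genotypes, none of the 9 transcripts passed the test, and the 95% interval of each lay inside 1.5-fold in either direction. In edgeR's quasi-likelihood test over all genes, the 9 adjusted p-values lay between 0.334 and 0.978, 0.389% of all tested genes were called, and 1 of the 9 had an unadjusted p under 0.05 (Cgnl1). With so low a share of called genes in the background, 0 of 9 is no property of these transcripts, and the intervals carry the result. The 95% intervals, given gene by gene without adjustment, reached from 0.789-fold at the lowest (Ocln) to 1.29-fold at the highest (Marveld2 and Cgnl1). Such bounds were common at these levels, since 89.9% of the 7304 tested genes at or above 4.5 in log2 CPM had an interval inside 1.5-fold. The median log2 fold change was -0.01 over the 9 and 0.002 over all tested genes, with 4 of the 9 positive and 5 negative. In a fit of only the title cage that held the KO pups, with WT pup 5 as the single control, 0 of the 9 were called and the log2 fold changes ran from -0.27 (Ocln, 95% interval -0.51 to -0.04, edgeR adjusted p = 0.659) to 0.22 (Cgnl1, -0.05 to 0.48, adjusted p 0.874).

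**Figure D2:**
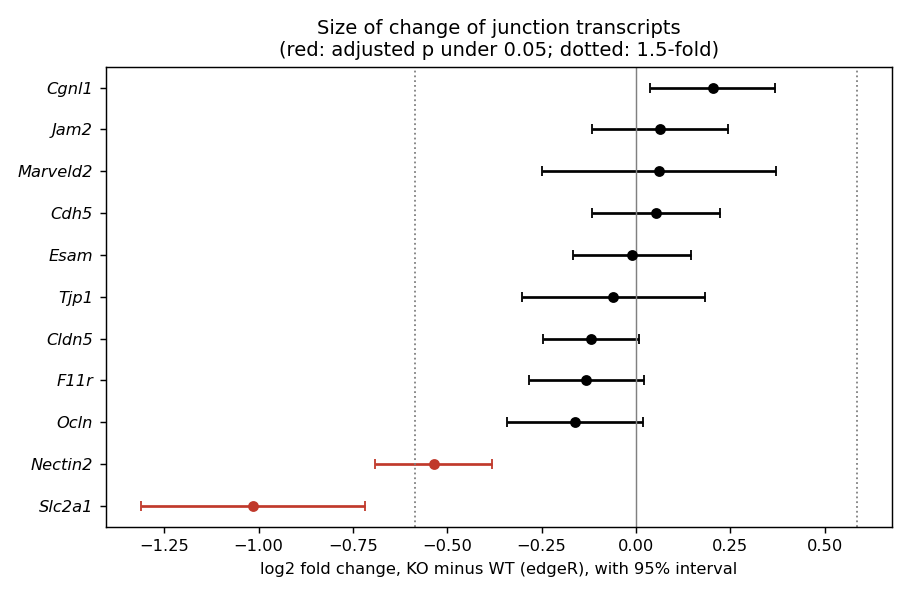
Log2 fold change, KO minus WT, with its 95% interval from edgeR for the 9 junction transcripts (black) and for Nectin2 and Slc2a1 (red, adjusted p under 0.05). The black intervals lie inside the dotted lines at 1.5-fold, while Nectin2 is centred at -0.54 and Slc2a1 at -1.01.

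Among the strand proteins, Cldn5 was slightly lower in every KO pup. Cldn5 (ENSMUSG00000041378; GRCm38 chromosome 16, 18776847 to 18778262, plus strand), which lines the tight junction of brain endothelium, measured 2965, 3076, 3091 and 2865 CPM in KO pups 1 to 4. WT pups 1, 2, 3 and 5 measured 3214, 3253, 3248 and 3308 CPM. The groups did not overlap, with a gap of 123 CPM between the highest KO and the lowest WT pup, and the 4 WT pups differed by a coefficient of variation of only 1.19%. KO was at 92.1% of WT, with means of 2999 ± 106 and 3256 ± 38.9 CPM (SD, n = 4). The fitted log2 fold change was -0.12 (SE 0.06, 95% interval -0.25 to 0.01) and did not pass edgeR's test (adjusted p 0.492). It was the single one of the 9 whose groups did not overlap, as was the case for 7.19% of all tested genes. A fall of more than 15.6% lay outside the interval. With cage as a term its lower bound was -0.35 by the titles and -0.32 by the file names, so the limit on a fall was wider. Its upper bound lay close to 0 and moved with the setting, from 0.0086 on the log2 scale to 0.042 without KO pup 1, 0.037 without KO pup 4, 0.025 without WT pup 5, 0.021 without WT pup 3, 0.014 without WT pup 1, 0.013 without KO pup 3 and 0.092 with the cage of the file names as a term, and it fell below 0 with DESeq2 (-0.0044) and limma-voom (-0.0073).

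Occludin, a membrane protein of tight junction strands, showed the lowest average ratio of the 9. Ocln (ENSMUSG00000021638; chromosome 13, 100496507 to 100552718, minus strand) measured 262, 265, 284 and 274 CPM in KO pups 1 to 4 and 263, 327, 295 and 328 CPM in WT pups 1, 2, 3 and 5. The KO pups lay close together, and WT pup 1 was as low as the lowest of them, so the groups overlapped. The log2 fold change was -0.16 (SE 0.08, 95% interval -0.34 to 0.02) and edgeR gave an adjusted p of 0.516. A fall of more than 21.1% lay outside the interval. With cage as a term its lower bound was -0.56 by the titles and -0.42 by the file names, so the limit on a fall was wider. Without WT pup 1 the log2 fold change of Ocln was -0.22, and its 95% interval (-0.39 to -0.06) did not hold 0 (edgeR adjusted p = 0.341).

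Marveld2 (ENSMUSG00000021636; chromosome 13, 100595957 to 100616971, minus strand) lies 43238 bp from Ocln on the same strand, with no other protein-coding gene between them. It measured 20.0, 26.2, 23.3 and 29.96 CPM in KO pups 1 to 4 and 20.1, 26.1, 24.6 and 24.6 CPM in WT pups 1, 2, 3 and 5. The KO range spanned the WT range, and the coefficient of variation in KO, 17.0%, was the highest of the 9. Its interval was also the widest of the 9, at 0.06 on the log2 scale with bounds of -0.25 and 0.37 (edgeR adjusted p = 0.929). With cage as a term the bounds were wider, at -0.51 and 0.54 by the titles and -0.50 and 0.53 by the file names. Within the title cage of the KO pups, with WT pup 5 as the single control, they were -0.54 and 0.57. Over the 8 libraries the log2 CPM of Ocln and Marveld2 correlated at r = 0.33, or 0.16 without KO pup 1, given as a description.

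Neither plaque transcript passed the test. Cgnl1 (ENSMUSG00000032232; chromosome 9, 71626509 to 71771602, minus strand), which encodes the cingulin-like protein of the junction plaque, measured 669, 663, 593 and 579 CPM in KO pups 1 to 4. WT pups 1, 2, 3 and 5 measured 588, 526, 522 and 539 CPM. Of the KO pups, 3 lay above all WT pups, and only KO pup 4 fell below WT pup 1. The log2 fold change was 0.20 (SE 0.08, 95% interval 0.04 to 0.37), or 1.15-fold, for which edgeR gave a p of 0.0211 before adjustment and an adjusted p of 0.334. It was the only interval of the 9 in this fit that did not hold 0, and it bounds the rise to 29.2%. That limit was wider with cage as a term, where the upper bound was 0.50 by the titles and 0.53 by the file names. The interval did hold 0 without KO pup 1 (lower bound -0.012), without KO pup 2 (-0.023), without WT pup 5 (-0.0009) and with cage as a term by the titles (-0.063) or by the file names (-0.0079).

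Tjp1 (ENSMUSG00000030516; chromosome 7, 65296165 to 65527781, minus strand) encodes ZO-1, the PDZ scaffold that binds claudin tails. It measured 1339, 1180, 1171 and 1139 CPM in KO pups 1 to 4 and 1060, 1473, 1109 and 1392 CPM in WT pups 1, 2, 3 and 5. WT pups 2 and 5 were high and WT pups 1 and 3 low, so the KO values fell inside the WT range, and the WT coefficient of variation of 16.3% was the highest of that group. The log2 fold change was -0.06 (SE 0.11, 95% interval -0.30 to 0.18, edgeR adjusted p = 0.901). Its sign turned without WT pup 2 (0.022), and with the cage of the titles as a term the value was -0.21.

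The 3 immunoglobulin-type adhesion transcripts overlapped between groups. Esam (ENSMUSG00000001946; chromosome 9, 37528078 to 37538319, plus strand), an endothelial adhesion molecule of tight junctions, measured 1079, 1069, 1045 and 982 CPM in KO pups 1 to 4 and 1044, 954, 1129 and 1075 CPM in WT pups 1, 2, 3 and 5. At -0.01 (SE 0.07, 95% interval -0.17 to 0.15) its log2 fold change was near 0, and its sign turned without KO pup 4 (0.014) and without WT pup 3 (0.027). A fall of more than 10.9% or a rise of more than 10.7% lay outside the interval. With cage as a term the interval was wider, at -0.30 to 0.22 by the titles and -0.35 to 0.13 by the file names. F11r (ENSMUSG00000038235; chromosome 1, 171437535 to 171464603, plus strand), which encodes JAM-A, measured 214, 212, 226 and 209 CPM in KO pups 1 to 4 and 231, 248, 216 and 247 CPM in WT pups 1, 2, 3 and 5. Of the KO pups, 3 lay below every WT pup, and KO pup 3 lay above WT pup 3. F11r differed by -0.13 on the log2 scale (SE 0.07, 95% interval -0.28 to 0.02, edgeR adjusted p = 0.535). With cage as a term it differed by -0.20 (-0.45 to 0.05) by the titles and by -0.01 (-0.24 to 0.22) by the file names. Without WT pup 3 its interval was -0.33 to -0.01 and did not hold 0 (edgeR adjusted p = 0.412).

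Jam2 (ENSMUSG00000053062; chromosome 16, 84774123 to 84825928, plus strand), which encodes JAM-B, measured 331, 296, 298 and 294 CPM in KO pups 1 to 4 and 252, 306, 304 and 304 CPM in WT pups 1, 2, 3 and 5. All but 2 pups lay within 294 to 306 CPM, with KO pup 1 above and WT pup 1 below that band. The log2 fold change was 0.06 (SE 0.08, 95% interval -0.12 to 0.24, edgeR adjusted p = 0.837). Without WT pup 1 it was 0.00032.

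The adherens junction cadherin did not differ beyond its spread. Cdh5 (ENSMUSG00000031871; chromosome 8, 104101625 to 104144511, plus strand) measured 1715, 1599, 1631 and 1508 CPM in KO pups 1 to 4 and 1526, 1658, 1380 and 1657 CPM in WT pups 1, 2, 3 and 5. WT pup 3 was the lowest and KO pup 1 the highest, and the other 6 pups lay between 1508 and 1658 CPM. The log2 fold change was 0.05 (SE 0.08, 95% interval -0.12 to 0.22, edgeR adjusted p = 0.870), and a fall of more than 7.82% lay outside the interval. Its sign turned without WT pup 3 (-0.00030). The cage readings went opposite ways, with -0.039 (95% interval -0.31 to 0.23) for the titles and 0.22 (-0.01 to 0.46) for the file names, so the limit on a fall is wider with the former.

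**Figure D3:**
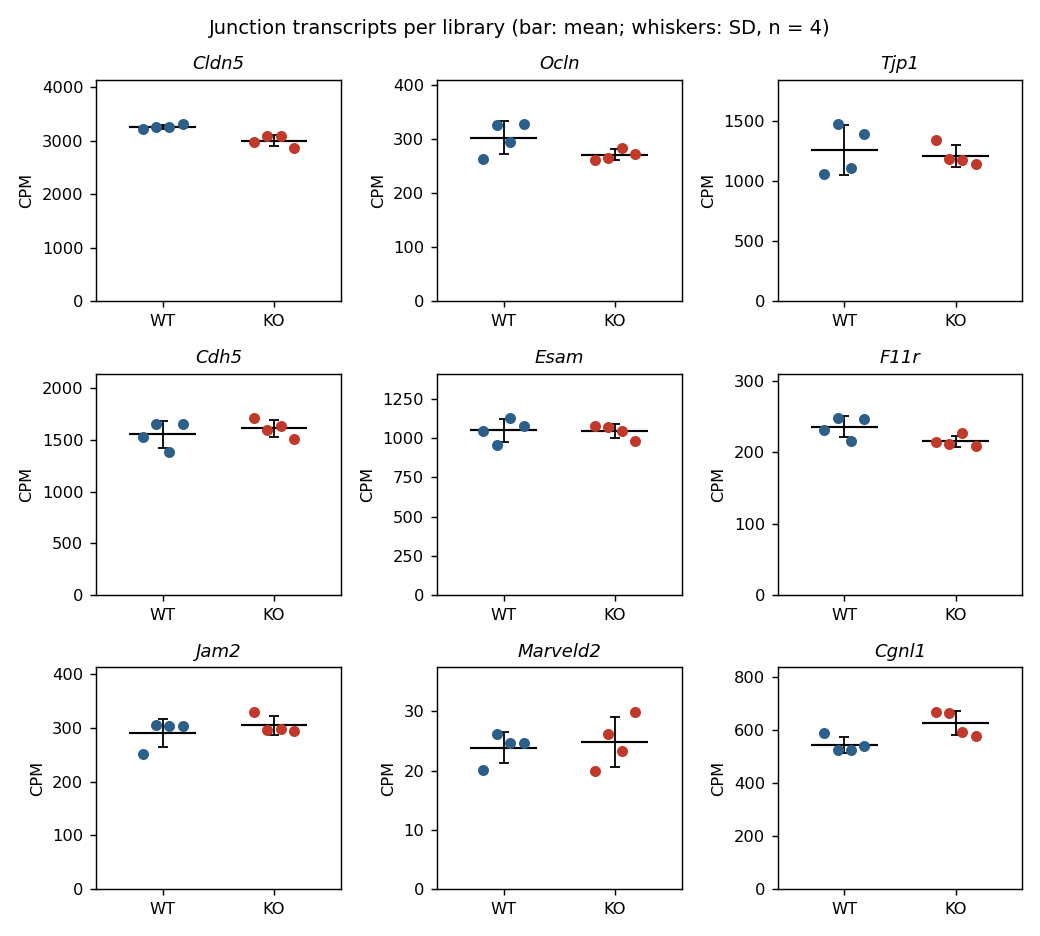
CPM of each junction transcript in 4 WT (blue) and 4 KO pups (red) on axes that start at 0, with the mean as a bar and the SD as whiskers. Cldn5 is the one panel in which the groups do not overlap, and its KO mean of 2999 CPM stands beside a WT mean of 3256.

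The 9 transcripts did not all move together from library to library. Of 72 values, 69 lay within 0.25 log2 units of the gene's WT mean, and the extremes were -0.25 (Marveld2 in KO pup 1) and 0.33 (Marveld2 in KO pup 4). KO pup 1, the library that stood apart, was the highest for Cdh5, Jam2 and Cgnl1 and the lowest for Ocln and Marveld2. WT pup 5 was above the mean over all libraries for 8 of the 9, the highest for Cldn5 and Ocln, and KO pup 4 for 1. Across the 36 pairs of transcripts, r over 8 libraries ran from -0.81 (Ocln with Cgnl1) to 0.78 (Ocln with F11r), with a median of 0.12. With the group means removed, r ran from -0.71 (Marveld2 with Cgnl1) to 0.85 (Cdh5 with F11r). Cldn5 with Cgnl1 then went from -0.63 to 0.16. Cldn5, Tjp1, Cdh5, F11r, Ocln and Jam2, grouped after the values were seen, were then all positive with each other. The lowest r among them was 0.13 (F11r with Jam2), and Cldn5 with Jam2 was at 0.14. These correlations share the scaling and depth of 8 libraries and are descriptions. Among 6127 other genes whose log2 CPM averaged 5 or more, the transcripts most like Cldn5 over the 8 libraries were Rassf9 (r = 0.95), Rgs3 (0.95) and Hspa12b (0.95). Their log2 fold changes were -0.37, -0.35 and -0.37, so r over both groups includes a difference between groups. The transcripts most like Cdh5 were Cd93 (0.98), Dcaf1 (0.98) and Adgrf5 (0.96), with log2 fold changes of 0.04, 0.04 and 0.03.

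**Figure D4:**
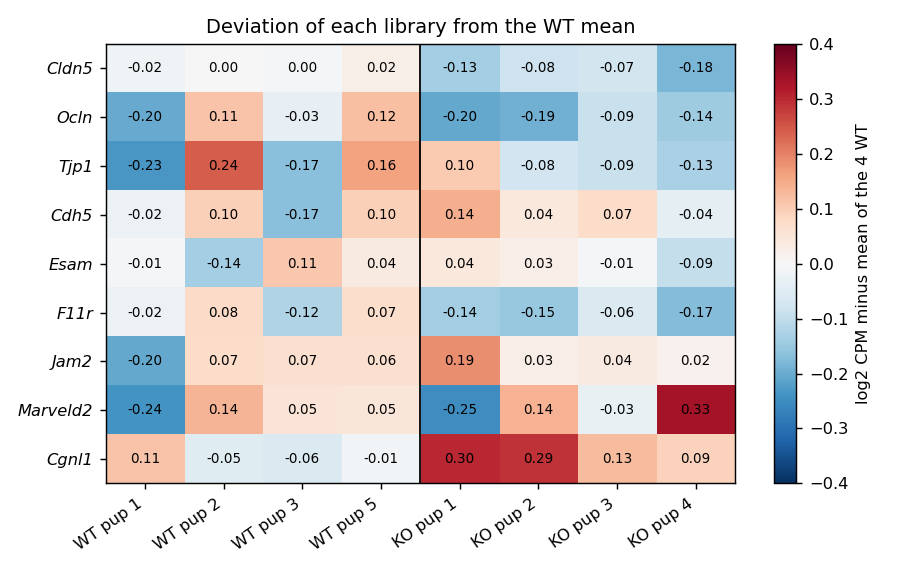
Log2 CPM of each junction transcript (rows) in each library (columns, WT left and KO right of the line) minus the mean of the 4 WT libraries. Cldn5, Ocln and F11r are below 0 in all 4 KO columns and Jam2 and Cgnl1 above 0, and WT pup 5 lies above 0 for every transcript but Cgnl1 (-0.01).

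A wider list of 91 junction genes in 6 roles, the 9 included, was read from the same fit. It had 90 rows, of which 71 were tested, and 1 gene was called, Nectin2, lower in KO (background 0.113% called lower and 0.276% called higher). The median log2 fold change of the 71 was -0.06, against 0.002 over all tested genes, and 8 of the 71 (11.3%) did not overlap between groups, against 7.19% of all.

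Nectin2 (ENSMUSG00000062300; chromosome 7, 19716644 to 19750483, minus strand), which encodes a nectin that binds afadin at adherens junctions, fell to 0.690 of its WT level. It measured 100.1, 96.3, 96.4 and 98.6 CPM in KO pups 1 to 4 and 131, 154, 141 and 142 CPM in WT pups 1, 2, 3 and 5. Every KO pup lay below every WT pup. Means were 97.8 ± 1.85 CPM in KO and 142 ± 9.62 in WT (SD, n = 4), and the log2 fold change was -0.54 (SE 0.07, 95% interval -0.69 to -0.38, edgeR adjusted p = 0.00579). It was called without any one of the 8 libraries (adjusted p at most 0.0350) but not with cage as a term, where the log2 fold change was -0.54 by the titles (adjusted p 0.255) and -0.52 by the file names (adjusted p 0.270). Its paralogue Nectin1 also did not overlap, at 14.3 ± 1.91 and 19.9 ± 2.24 CPM, without passing (log2 fold change -0.47, edgeR adjusted p = 0.226). The nectin partner afadin (Afdn) measured -0.04.

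Claudins other than Cldn5 were scarce. Cldn5 made up 98.0 to 99.1% of all claudin CPM in each library, and 7 of the 23 claudins with a row had no count in any library, which allows up to 0.144 CPM in the shallowest. This limit cannot be applied to one of them, Cldn22, all of whose exon bases lie opposite exons of Wwc2. Cldn12 followed with 5.16 ± 0.439 RPKM and Cldn11 with 4.996 ± 3.01 (SD, n = 8). Cldn6 had 1.03 RPKM. Of the 8 tested claudins 0 passed. Cldn1 measured 1.06, 2.65, 1.27 and 3.44 CPM in KO pups 1 to 4 and 2.43, 5.81, 2.90 and 16.2 CPM in WT pups 1, 2, 3 and 5 (log2 fold change -1.68, edgeR adjusted p = 0.324). Cldn2, a claudin of choroid plexus epithelium, measured 1.34, 0.249, 0.163 and 0.788 CPM in KO and 1.03, 2.09, 1.03 and 5.71 CPM in WT (log2 fold change -1.95, edgeR adjusted p = 0.373). Both were highest in WT pup 5, where the choroid plexus and ependyma list was also highest (1878 CPM), and the part of that list in these values was not tested.

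The angulin Lsr, which recruits tricellulin to tricellular contacts, was abundant at 225.5 ± 13.5 RPKM and measured -0.08 (95% interval -0.24 to 0.07), although 43.6% of its exon bases overlap an antisense gene. Ildr2, of the same family, measured -0.04 and Ildr1 had 0.0595 RPKM. Of the 17 tested plaque scaffolds 0 passed, with a median of -0.06, and outside the 9 the smallest p-values belonged to Magi1 (-0.30, adjusted p 0.255), Pard3 (-0.24) and Mpp5 (-0.09). The abundant scaffolds Ybx3, Arhgef2 and Afdn measured -0.09, -0.0005 and -0.04. Among the 13 immunoglobulin-type genes, Pecam1 measured 0.02 (95% interval -0.13 to 0.16), Mcam -0.23 and Alcam -0.47.

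Of the 11 tested genes of the cadherin complex, Cdh5 and other cadherins included, 0 passed. Ctnnb1, which encodes beta-catenin, measured -0.02 (95% interval -0.15 to 0.12), Ctnna1 -0.04 and the phosphatase gene Ptprb, whose product VE-PTP binds VE-cadherin, -0.11. Vcl, the actin linker vinculin, measured 199 ± 5.24 CPM in KO and 247 ± 14.3 in WT without overlap (log2 fold change -0.31, edgeR adjusted p = 0.0832). Ctnnd1, p120-catenin, measured -0.21 and did not overlap either (adjusted p 0.239). Vcl shares 25.5% of its exon bases with the opposite-strand gene Ap3m1, and Ctnnd1 shares 61.2% with the predicted gene Gm28635. How reads in the shared bases were assigned is not given in the sources used here. Cdh13, which encodes T-cadherin, lay higher in every KO pup (0.43, adjusted p 0.210).

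Among 18 junction signalling genes 0 passed, with a median of 0.01. Rap1a, a small GTPase that tightens endothelial junctions, lay above WT in every KO pup (0.27, adjusted p 0.213), Pdcd10 measured 0.25 and Rock2 -0.22. The abundant Cdc42, Rac1 and Rasip1 measured 0.06, 0.03 and -0.12, with 51.4% of the exon bases of Rac1 shared with the opposite-strand gene Daglb and 20.4% of those of Rasip1 with Izumo1. Without KO pup 4, Cdh1 (-2.97, adjusted p 0.0178) and Cxadr (-2.92, adjusted p 0.00450) were called lower in addition to Nectin2. These epithelial adhesion genes, singled out after their values were seen, were not called with all libraries (-0.84 and -1.08). Among the KO pups the choroid plexus and ependyma list was highest in KO pup 4 (318 CPM), below its WT range of 370 to 1878 CPM. The astrocyte, neuron, fibroblast, mural and red cell lists were also highest in KO pup 4 among the KO pups. A link between any of these lists and these genes was not tested.

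**Figure D5:**
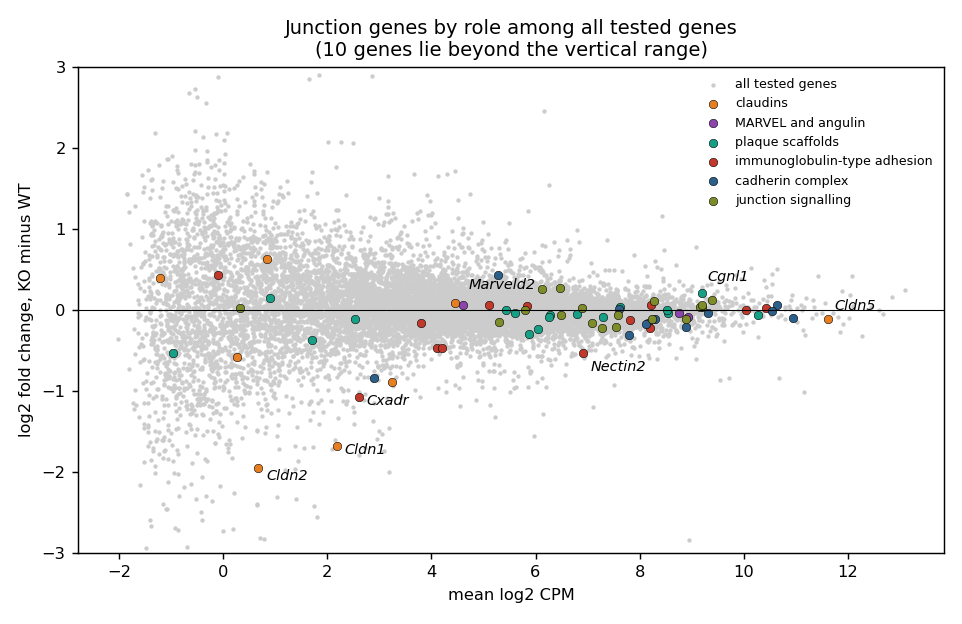
Log2 fold change, KO minus WT, against mean log2 CPM for 71 tested junction genes coloured by role over all 14154 tested genes (grey). Many abundant junction genes lie near 0. Nectin2 lies at -0.54, and more abundant genes away from 0 include Vcl (-0.31), Mcam (-0.23), Ctnnd1 (-0.21) and Cgnl1 (0.20). The negative values of Cldn1, Cldn2 and Cxadr occur at low levels where the grey cloud is wide.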

How the data were processed

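RNA of endothelial cells sorted from 8 brains was sequenced, and the authors deposited 1 table of raw counts per gene for each library. The submitters' processing notes name STAR and featureCounts, with GRCm38 as the build. The sources used here give no versions, annotation release or strand setting. None of the 9 genes shares exon bases with another gene in GENCODE M21.

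Groups came from the sample titles and match the genotype labels. The model used edgeR 4.0.16 in R 4.3.3 (filterByExpr at 10 counts and a total of at least 15, TMM scaling, genotype as the only term, quasi-likelihood F test). P-values were adjusted over 14154 genes by the Benjamini-Hochberg method at 0.05. Intervals (95%) came from the Fisher information and the moderated quasi-dispersion. The fit was tested on counts simulated from its own means and dispersions, with genotype as the only effect. That simulation held no cage effect, so it cannot show how the intervals behave where genotype and cage are nearly confounded. The intervals and the limit from a count of 0 (3 counts) describe these libraries, which held 20858070 to 114007737 counts, and the latter covers counting error only. No 2 libraries agreed within sampling noise (lowest chi-square per gene 15.6).

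The members, lists and the rule for named genes were chosen with earlier results of these data known. The rule took the 9 genes, Slc2a1, called genes of the wider list, and the 3 with the smallest p and the 3 with the highest level in each role. Marker lists were fixed for endothelial (summed CPM 8834 to 10226 over all libraries), mural (458 to 2565), microglial (520 to 1440), astrocytic (303 to 399), neuronal (25.8 to 41.3), oligodendrocyte (61.6 to 151), fibroblast (48.5 to 165), choroid plexus and ependymal (18.9 to 1878) and red cells (522 to 1629). Alternatives changed the scaling, filter, test (DESeq2 1.42.0, limma-voom 3.58.1), terms and libraries. One, leaving out KO pup 1 and WT pup 2 together, was chosen after seeing the data.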

Additional observations from a re-analysis of the deposited data

Results flagged for a closer look

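In 43 named genes and 2 groups of 4 pups each, 86 sets of values were screened for a single sample far from its group, and 5 were found, where chance alone gives about 1 in 20. Cdh1 and Cxadr entered this screen outside the rule for named genes, after their values were seen. Their entries among the 5 are therefore descriptions only and do not count against that chance rate. Jam2 had one in each group: KO pup 1 was the highest of its group at 331 CPM and WT pup 1 the lowest of its group at 252 CPM. Ildr2 was highest in WT pup 2 at 537 CPM, against 401 to 424 CPM in the other WT pups. Cdh1 stood at 17.1 CPM in KO pup 4, against 0.490 to 1.82 CPM in the other KO pups and 7.80 to 11.7 CPM in WT. Cxadr stood at 11.8 CPM in the same pup, against 0.736 to 1.37 CPM in the other KO pups and 6.08 to 10.1 CPM in WT.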

How the results depend on the processing

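Over 18 alternative settings, 0 of the 9 transcripts was called in any, DESeq2 included. As reported, 1 of the 9 had an unadjusted p under 0.05 (Cgnl1), against 2 with DESeq2 and limma-voom (Cldn5 and Cgnl1) and 0 with either cage term. Every interval stayed within 1.5-fold except that of Tjp1 with the cage of the titles as a term (lower bound -0.59). Cldn5, Ocln, F11r, Jam2 and Cgnl1 kept their sign in all 18. Their log2 fold changes ran from -0.14 to -0.09 (Cldn5), -0.28 to -0.11 (Ocln), -0.20 to -0.01 (F11r), 0.00032 to 0.10 (Jam2) and 0.15 to 0.26 (Cgnl1). Signs turned for values near 0, and the cause was not tested. Esam was 4.5e-05 with upper-quartile factors, Cdh5 was -0.039 with the cage of the titles as a term and -0.039 within that cage, and Tjp1 was 0.12 with the cage of the file names. With pup number as a replicate block Tjp1 was 0.033, Esam 0.033 and Marveld2 -0.029. Leaving out 1 library gave -0.13 to 0.022 for Tjp1, -0.00030 to 0.081 for Cdh5, -0.057 to 0.027 for Esam and -0.048 to 0.15 for Marveld2.

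Slc2a1 lost its call with the cage of the file names (-0.89, adjusted p 0.331) and with the replicate block (-0.91, adjusted p 0.0931). Nectin2 stayed between -0.57 and -0.50 and was called in 14 of 18 settings, not with either cage term, within the title cage of the KO pups (adjusted p 0.174) or with the block (adjusted p 0.285). Same-numbered pups did not deviate together (r = -0.03, 0.03 and -0.07), so the numbers do not pair them. The wider list had 2 calls with DESeq2 (Nectin2 and Vcl), 0 with either cage term, within the cage or with the replicate block, and 1 to 3 without 1 library. All genes called numbered 84 with no filter, 351 with DESeq2, 16 and 10 with the cage terms, 22 within the cage, 11 with the replicate block and 32 (without KO pup 3) to 85 (without KO pup 1) with 1 library left out. Leaving out KO pup 1 and WT pup 2 together gave 76, with 0 of the 9 and 1 of the wider list. In the cage fits the genotype difference rests on a single WT pup, assumed to vary like the rest. In the level order 7 of 9 ranks held with the longest transcript.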

Other observations

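The genes Cldn11, Cdh1 and Cxadr were high in KO pup 4 and low in the other KO pups, and Cldn1 and Cldn2, also at low levels, were not so arranged. Cldn11 measured 4.70, 3.07, 1.76 and 16.3 CPM in KO pups 1 to 4 and 12.5, 10.3, 10.2 and 15.96 CPM in WT pups 1, 2, 3 and 5, so that KO pups 1 to 3 lay below every WT pup and KO pup 4 above. Cdh1 and Cxadr, which encode E-cadherin and the coxsackievirus and adenovirus receptor, had the same arrangement. KO pup 4 also had the highest sums of all libraries for the fibroblast (165 CPM), astrocyte (399 CPM) and neuron (41.3 CPM) lists. Among KO pups it was highest for the mural (2561 CPM), red cell (1001 CPM) and choroid plexus and ependyma lists (318 CPM, against 370 to 1878 in WT). It was not the highest KO pup for the microglial and oligodendrocyte lists, and its endothelial sum (8834 CPM) was the lowest of all libraries. The part of other cell types in these values was not tested. All 3 genes were singled out after their values were seen.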
